A study of Mus musculus with 8 samples.

Results

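Binding of reprogramming factors was examined at 10 genes of the mesenchymal state, namely the transcription factor genes Snai1, Snai2, Zeb1, Zeb2, Twist1, Twist2, Prrx1 and Prrx2, the cadherin gene Cdh2 and the intermediate filament gene Vim. The genes were taken from a list, by symbol, and all 10 were found among 21938 protein-coding genes of the annotation. The data were Flag CUT&Tag peaks, that is, stretches of chromatin where an antibody against the Flag epitope on the delivered factor brought the transposase Tn5. Mouse embryonic fibroblasts (MEFs) with the OG2 allele, a GFP reporter of Oct4, were infected with retrovirus and profiled at day 3 of reprogramming. Per the methods of the study, OG2 MEFs came from embryos of OG2 males crossed to females of another strain. There were 8 groups of 1 library each, in which the tagged factor was Nanog, Oct4, Sox2 or Nr5a2, either native or with BiD at its N-terminus (NanogBiD, Oct4BiD, Sox2BiD and Nr5a2BiD). BiD comprises 70 residues of the BAF subunit SS18 and is known to contact BRG1, the motor subunit of that nucleosome remodeller. Which other factors were given to the same cells is not stated in the titles, and no untreated or untagged library was analysed here. A peak was assigned to a gene when its summit lay in the gene body or within 100 kb of the first start site, which gave 1012 of 661009 summits.

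Epithelial to mesenchymal transition is the programme by which epithelial cells lose their junctions and gain motility. The zinc finger proteins of the Snail and Zeb families repress epithelial genes such as E-cadherin by binding E-boxes, and the basic helix-loop-helix proteins Twist1 and Twist2 and the homeodomain proteins Prrx1 and Prrx2 act in mesenchyme and its derivatives. N-cadherin, encoded by Cdh2, and vimentin, encoded by Vim, are the classical structural markers of the mesenchymal state. Fibroblasts express this programme, and its shutdown, the mesenchymal to epithelial transition, is known as an early step of reprogramming to pluripotency.

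The DNA at the summits is shown first, since the 4 factors recognise different sequences. Each run is from the plus strand of mm10, with 50 bases to each side of a summit, and capitals mark matches on either strand to the motif of the tagged factor. The motifs were ATGCAAAT (the octamer) for Oct4, CCATTGTT for Sox2, CAAGGTCA or CAAGGCCA (NR5A) for Nr5a2 and GCCATTA for Nanog. For each factor, the first pair of regions by score is shown, with exons and the genes on 1 chromosome left out. The Nanog pair lay in an intron of Twist2 (chr1:91816754-91816854) and after Vim (chr2:13631859-13631959).
Nanog, Twist2: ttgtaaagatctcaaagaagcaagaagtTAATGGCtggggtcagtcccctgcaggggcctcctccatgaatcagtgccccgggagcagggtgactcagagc
NanogBiD, Vim: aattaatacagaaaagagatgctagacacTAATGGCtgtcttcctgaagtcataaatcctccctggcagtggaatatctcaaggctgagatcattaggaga
The Oct4 pair lay in an intron of Zeb2 (chr2:45006279-45006379) and before Prrx2 (chr2:30737894-30737994), and each run held 2 octamers.
Oct4BiD, Zeb2: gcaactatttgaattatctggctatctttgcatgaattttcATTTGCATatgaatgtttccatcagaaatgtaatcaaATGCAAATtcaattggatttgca
Oct4BiD, Prrx2: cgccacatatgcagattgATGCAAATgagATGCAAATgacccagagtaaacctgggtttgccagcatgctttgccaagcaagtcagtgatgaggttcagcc
The Sox2 pair lay before Prrx1 (chr1:163374659-163374759) and after Vim (chr2:13597185-13597285).
Sox2BiD, Prrx1: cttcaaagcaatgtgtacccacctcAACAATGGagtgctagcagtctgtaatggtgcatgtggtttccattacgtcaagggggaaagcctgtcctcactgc
Sox2BiD, Vim: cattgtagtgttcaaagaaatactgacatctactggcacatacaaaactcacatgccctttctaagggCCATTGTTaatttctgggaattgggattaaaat
The Nr5a2 pair lay before Prrx1 (chr1:163343745-163343845) and after Prrx2, in an intron of Ptges (chr2:30912346-30912446).
Nr5a2, Prrx1: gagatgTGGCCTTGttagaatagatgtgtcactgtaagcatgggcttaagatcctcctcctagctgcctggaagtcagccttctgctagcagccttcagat
Nr5a2BiD, Prrx2: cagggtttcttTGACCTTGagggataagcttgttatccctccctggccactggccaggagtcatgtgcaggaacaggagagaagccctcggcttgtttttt

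A further set of 3 runs shows regions in which every library had a peak, with the motifs of all 4 factors in capitals. The region before Prrx1 (chr1:163362764-163362864) held 2 octamers and 2 overlapping NR5A matches. The regions before Vim (chr2:13558717-13558817) and after Snai1 (chr2:167553212-167553312) held none of the 4 motifs around their best summit.
Oct4BiD, Prrx1: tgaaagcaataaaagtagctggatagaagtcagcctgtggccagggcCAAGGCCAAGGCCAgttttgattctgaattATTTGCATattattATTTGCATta
NanogBiD, Vim: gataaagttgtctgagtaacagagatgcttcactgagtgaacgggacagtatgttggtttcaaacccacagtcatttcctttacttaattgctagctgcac
Sox2BiD, Snai1: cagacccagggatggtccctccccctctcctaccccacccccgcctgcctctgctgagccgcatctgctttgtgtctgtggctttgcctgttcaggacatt

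The number of peaks called in a library ranged from 54794 for native Oct4 to 120594 for Sox2BiD, and the number of summits at the 10 genes moved with it. There were 121 summits at the 10 genes in native Nanog, 125 in NanogBiD, 78 in native Oct4, 140 in Oct4BiD, 78 in native Sox2, 175 in Sox2BiD, 168 in native Nr5a2 and 127 in Nr5a2BiD. Per 10000 peaks of a library this was 13.4 (native Sox2) to 16.7 (Nr5a2BiD). Of the 1012 summits, 92 lay within 2 kb of an annotated start site of one of the 10 genes, 69 within 2 kb of a start site of another coding gene and 851 were distal, and 405 lay inside the body of the gene. The coding start site nearest to a summit was that of the listed gene for 738 summits and of another gene for 274, so a peak in these windows need not belong to the listed gene. The median score percentile of the summits, ranked within each library, was 46.8 to 54.4%, and 7.69 to 12.8% were among the top 10% of the library. Peak height is the number of tags at the summit and is not scaled to sequencing depth, so heights are best read within a library, and the read totals of the libraries are not used here. Identity of the cells was checked only at promoters, which do not measure expression. Of 8 fibroblast marker genes, 5 to 8 had a promoter peak in each library. For other cell types the counts were 1 to 2 of 4 macrophage, 0 to 3 of 4 endothelial and 0 to 2 of 3 neural genes. Of all coding genes, 25.2% (native Sox2) to 63.5% (native Nr5a2) had one. Some counts of the other cell types were not below that share, as with 3 of 4 endothelial genes in native Nr5a2. Csf1r (macrophage) had one in 8 libraries and Map2 (neural) in 7, while Adgre1 and Neurod1 had one in 0.

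The genes differed widely in how many peaks surrounded them. Cdh2 had 163 summits over the 8 libraries, more than 98.2% of coding genes, and Prrx1 had 139, more than 96.8%. Twist1, with 60, and Snai2, with 29, stood at the other end, with fewer summits in 34.4% and 17.8% of coding genes. Between these lay Zeb2 (108 summits), Twist2 (107), Prrx2 (105), Zeb1 (104), Vim (104) and Snai1 (93). A long gene has a larger window, and per 100 kb of window the order changed. Prrx1 had 69.5 summits per 100 kb, Twist2 53.5, Prrx2 52.5, Vim 52, Cdh2 50.9, Snai1 46.5, Zeb2 46.2 and Zeb1 36.7. Twist1 came next, and Snai2 was last with 14.5. The median over the 10 genes was above that over all coding genes in each library, with 11 against 7 summits in native Nanog and 18.5 against 15 in native Nr5a2 as examples, without allowance for gene length.

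**Figure D1:**
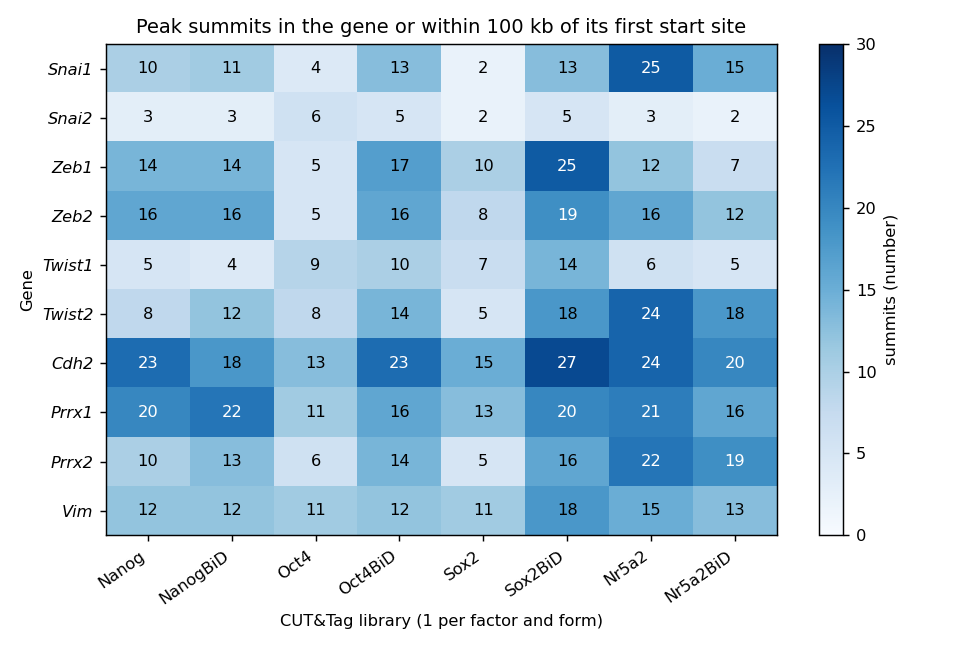
Number of peak summits (colour and printed number) in each gene or within 100 kb of its first start site, with genes as rows and the 8 libraries as columns. The Cdh2 and Prrx1 rows hold 11 to 27 summits in every library, and the Snai2 row holds 2 to 6.

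Snai1 (ENSMUSG00000042821.7, chromosome 2, 167538195 to 167542814), which encodes the repressor Snail, had 10 summits in native Nanog, 11 in NanogBiD, 4 in native Oct4, 13 in Oct4BiD, 2 in native Sox2, 13 in Sox2BiD, 25 in native Nr5a2 and 15 in Nr5a2BiD. The Nr5a2 libraries had the most, and native Oct4 and native Sox2 the fewest. Its promoter had a peak in 6 libraries. The promoter summit was 84 tags high in native Nr5a2 and 72 in Nr5a2BiD, with scores above 95.9% and 95.2% of the peaks of these libraries, and lay 0.881 and 0.801 kb after the start, in a coding exon. In the other 4 libraries it was 15 to 21 tags high, at percentiles of 14.6 to 47.4, and lay within 136 bp of the start. Positions are given in kb from the first start site in the direction of transcription, with negative values before it. All 8 libraries had a peak 15.1 kb after the start, beyond the end of the gene, with heights from 11 tags in native Oct4 to 40 tags in Sox2BiD. This window is gene-rich. Summits fell within 2 kb of the starts of Ube2v1, at 94.1 kb, in 7 libraries, and of Rnf114, at -45.7 kb, in 6.

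Snai2 (ENSMUSG00000022676.7, chromosome 16, 14705852 to 14709385), which encodes Slug, had 3 summits in each Nanog library, 6 in native Oct4, 5 in Oct4BiD, 2 in native Sox2, 5 in Sox2BiD, 3 in native Nr5a2 and 2 in Nr5a2BiD. It was sparse in distal peaks, but its promoter had a peak in every library. The promoter heights were 34 tags in native Nanog, 58 in NanogBiD, 19 in native Oct4, 22 in Oct4BiD, 13 in native Sox2, 20 in Sox2BiD, 26 in native Nr5a2 and 21 in Nr5a2BiD. In 7 libraries these summits lay 209 to 579 bp before the start, and in native Nr5a2 the higher-scoring of 2 lay 1361 bp after it. Among the distal regions, 1 at 30.5 kb was found in both Nanog libraries, with 47 tags in native Nanog, 31 in NanogBiD and 15 in Nr5a2BiD.

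Zeb1 (ENSMUSG00000024238.15, chromosome 18, 5591860 to 5775467) and Zeb2 (ENSMUSG00000026872.17, chromosome 2, 44983632 to 45117395, minus strand) are long genes of zinc finger and homeodomain repressors, and most of their summits lay inside the gene body, 70 of 104 for Zeb1 and 77 of 108 for Zeb2. Zeb1 had 14 summits in each Nanog library, 5 in native Oct4, 17 in Oct4BiD, 10 in native Sox2, 25 in Sox2BiD, 12 in native Nr5a2 and 7 in Nr5a2BiD. Sox2BiD had the most. The highest-scoring summit of the 10 genes in both Sox2 libraries lay in a Zeb1 intron at 27.9 kb, with 59 tags in native Sox2 and 64 in Sox2BiD. Both Nanog libraries had a peak in this region too, of 51 and 32 tags, and no Oct4 or Nr5a2 library did. A second intronic region, at 149 kb, had peaks in both Nanog libraries (34 tags each), in both Nr5a2 libraries (34 and 44) and in Sox2BiD (18). At the first start site of Zeb1, heights were 12 to 28 tags in 6 libraries, with no peak in native Oct4 or native Sox2.

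Zeb2 had 16 summits in native Nanog, NanogBiD, Oct4BiD and native Nr5a2, 5 in native Oct4, 8 in native Sox2, 19 in Sox2BiD and 12 in Nr5a2BiD. It was the only one of the 10 genes whose first start site lacked a peak in 7 libraries, and native Nr5a2 had 1 of 19 tags there. Apart from that peak, the promoter peaks counted for Zeb2 in 7 libraries stood at others of its 29 annotated start sites. No region at Zeb2 was found in more than 5 libraries. The intronic region with 2 octamers, printed above, lay at 111 kb and had 29 tags in native Oct4, 65 in Oct4BiD, 36 in native Nr5a2 and 27 in Nr5a2BiD, and no peak in the other 4 libraries. Its Oct4BiD score, 655, was the highest of any summit of the 10 genes with the motif of its own factor.

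Twist1 (ENSMUSG00000035799.6, chromosome 12, 33957671 to 33959829) had 5 summits in native Nanog, 4 in NanogBiD, 9 in native Oct4, 10 in Oct4BiD, 7 in native Sox2, 14 in Sox2BiD, 6 in native Nr5a2 and 5 in Nr5a2BiD. Its promoter had a peak in all 8 libraries, 20 to 42 tags high. A region at 83.5 kb was also found in all 8, with 71 tags in Sox2BiD and 15 to 37 in the others, and a region at 23.9 kb in 7, all but Nr5a2BiD. Upstream, a pair of neighbouring regions was held almost entirely by Oct4. The region at -19.4 kb had 59 tags in native Oct4, 94 in Oct4BiD and 13 in Nr5a2BiD. The region at -17.5 kb had 46 tags in native Oct4 and 67 in Oct4BiD, and no peak elsewhere. An octamer lay within 50 bp of a summit in both.

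Twist2 (ENSMUSG00000007805.4, chromosome 1, 91801461 to 91848028) had 8 summits in native Nanog, 12 in NanogBiD, 8 in native Oct4, 14 in Oct4BiD, 5 in native Sox2, 18 in Sox2BiD, 24 in native Nr5a2 and 18 in Nr5a2BiD. Its promoter had a peak in 4 libraries only, those of Nanog, with 19 tags each, and of Nr5a2, with 69 tags in the native library and 39 in Nr5a2BiD. The Nr5a2 summits, 331 and 227 bp before the start, scored above 94.4% and 93.5% of the peaks of their libraries. Inside the gene the order of factors was another. The intronic region at 15.3 kb, whose NANOG match is printed above, had 59 tags in native Nanog, 53 in NanogBiD, 61 in native Sox2, 68 in Sox2BiD, 20 in native Nr5a2 and 22 in Nr5a2BiD, and no peak in either Oct4 library. There were 7 regions with a peak in both Nr5a2 libraries and no other. In 1 of them, at chr1:91788875-91788975, the 50 bases to each side of the native Nr5a2 summit held 4 NR5A matches. These matches lay in a stretch of short repeated sequence and are largely copies of the same unit.

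Prrx1 (ENSMUSG00000026586.16, chromosome 1, 163245119 to 163313710, minus strand) had 20 summits in native Nanog, 22 in NanogBiD, 11 in native Oct4, 16 in Oct4BiD, 13 in native Sox2, 20 in Sox2BiD, 21 in native Nr5a2 and 16 in Nr5a2BiD. It had 10 regions found in 6 or more libraries, where Cdh2 had 6 and none of the other 8 genes more than 5. The highest-scoring summit of the 10 genes in both Oct4 libraries lay before it, at -24.3 kb (native Oct4) and -24.6 kb (Oct4BiD). That region had 46 tags in native Oct4, 93 in Oct4BiD, 31 in native Nanog, 26 in NanogBiD, 16 in native Sox2, 36 in Sox2BiD and 12 in native Nr5a2, and no Nr5a2BiD peak. By score the Oct4BiD peak ranked 26 of 93978 in its library, and the native one 642 of 54794. No octamer lay within 50 bp of either summit. The region at -49.1 kb, printed above, had 60 tags in native Oct4, 68 in Oct4BiD, 41 in native Nanog, 58 in NanogBiD, 39 in native Sox2, 33 in Sox2BiD, 20 in native Nr5a2 and 19 in Nr5a2BiD. At the first start site, the summit heights were 22 to 47 tags in 6 libraries. Their score percentiles ran from 3.05 in native Nr5a2 to 89.5 in Oct4BiD. Native Sox2 and Nr5a2BiD had no peak there. Another region found in all 8 libraries, at -90.1 kb, was the promoter of Gorab.

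Prrx2 (ENSMUSG00000039476.13, chromosome 2, 30834972 to 30881251) had 10 summits in native Nanog, 13 in NanogBiD, 6 in native Oct4, 14 in Oct4BiD, 5 in native Sox2, 16 in Sox2BiD, 22 in native Nr5a2 and 19 in Nr5a2BiD. Its own promoter had a peak in the Nanog libraries alone, 1.47 and 1.52 kb after the start, of 11 tags in native Nanog and 44 in NanogBiD. This depends on the limit of 2 kb, since a native Nr5a2 summit of 37 tags lay 2059 bp from another annotated start site of Prrx2. Of its 105 summits, 34 lay within 2 kb of the start of another gene. The region shared by all 8 libraries at -27.1 kb was the promoter of Ntmt1, with 83 tags in native Nr5a2 and 92 in Nr5a2BiD, and 1 in 7 libraries at -40.1 kb was that of 1700001O22Rik. A second region in all 8 libraries, at 84.3 kb, lay in an intron of Ptges. The region with 2 octamers at -97.0 kb had 27 tags in native Oct4 and 98 in Oct4BiD, and no peak in the other 6 libraries.

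Cdh2 (ENSMUSG00000024304.14, chromosome 18, 16588877 to 16809246, minus strand) had 23 summits in native Nanog, 18 in NanogBiD, 13 in native Oct4, 23 in Oct4BiD, 15 in native Sox2, 27 in Sox2BiD, 24 in native Nr5a2 and 20 in Nr5a2BiD. Of its 163 summits, 144 lay in the gene body. The highest-scoring summit of the 10 genes in both Nr5a2 libraries was in an intron at 69.9 kb (native Nr5a2) and 69.8 kb (Nr5a2BiD). It was 69 tags high and ranked 35 of 108030 in native Nr5a2, and 64 tags high and ranked 137 of 76217 in Nr5a2BiD. The other libraries had a peak in this region as well, from 13 tags in native Oct4 to 66 in Sox2BiD. A region at 83.5 kb was found in all 8 libraries, with 24 tags in native Oct4, 38 in Oct4BiD and 12 to 23 tags in the rest. The region over the start of the gene was the third, and its best-scoring summits lay 0.276 to 0.601 kb after the first start site for native Nanog, both Oct4 and both Nr5a2 libraries and 2.401 to 2.711 kb after it for NanogBiD and both Sox2 libraries. The Sox2 heights there were 42 tags in the native library and 66 in Sox2BiD.

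Vim (ENSMUSG00000026728.9, chromosome 2, 13573927 to 13582826) had 12 summits in native Nanog, NanogBiD and Oct4BiD, 11 in native Oct4 and native Sox2, 18 in Sox2BiD, 15 in native Nr5a2 and 13 in Nr5a2BiD. Its counts varied least in proportion. The promoter peak was 55 tags high in native Nanog, 72 in NanogBiD, 32 in native Oct4, 40 in Oct4BiD, 50 in native Sox2, 79 in Sox2BiD, 38 in native Nr5a2 and 27 in Nr5a2BiD, at score percentiles of 83.0 to 96.3, so it was strong in every library. The highest-scoring summit of the 10 genes in both Nanog libraries lay before Vim, at -16.4 kb in native Nanog and -15.2 kb in NanogBiD, with 88 and 76 tags, and ranked 110 and 193 in its library. This region had a peak in all 8 libraries, with 47 tags in native Oct4, 75 in Oct4BiD, 62 in native Sox2, 61 in Sox2BiD, 30 in native Nr5a2 and 28 in Nr5a2BiD. A region at -29.6 kb, found in all 8, was the promoter of Trdmt1.

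**Figure D2:**
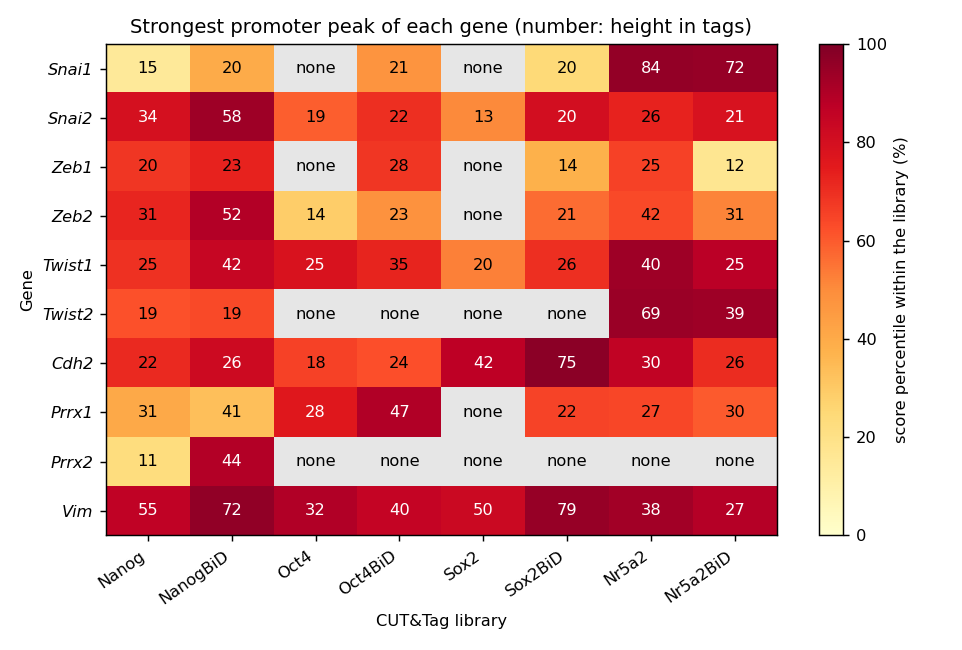
Best-scoring promoter peak (summit within 2 kb of any annotated start site of the gene) for each gene and library. Colour gives the percentile of its score within the library, the printed number its height in tags, and grey cells have no peak. Snai2, Twist1, Cdh2 and Vim have a peak in all 8 libraries, Twist2 in the Nanog and Nr5a2 libraries, and Prrx2 in the Nanog libraries.

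Across the genes, a promoter peak was found in all 8 libraries for 4 of the 10 (Snai2, Twist1, Cdh2 and Vim), where 17.2% of coding genes had one, and in no library for 0 of 10, where 24.4% of coding genes had none. By library, 10 genes had a promoter peak in native Nanog (51.2% of coding genes), 10 in NanogBiD (54.5%), 6 in native Oct4 (39%), 8 in Oct4BiD (55.9%), 4 in native Sox2 (25.2%), 8 in Sox2BiD (53.4%), 9 in native Nr5a2 (63.5%) and 9 in Nr5a2BiD (54%). Native Sox2 had the fewest both at these genes and over the genome. These counts depend on what is taken as the promoter. With the first start site only, a choice made after seeing the data, 3 genes (Snai2, Twist1 and Vim) had a peak in all 8 libraries, against 13.0% of coding genes. With a distance of 500 bp in place of 2 kb, 0 genes did, and 1 gene, Prrx2, had no promoter peak in any library.

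Whether the libraries met at the same places was asked by merging peaks that overlapped by at least 1 bp. The 1012 summits fell into 385 regions, of 306466 in the genome. Of these, 14 regions (3.64%) had a peak in all 8 libraries, against 1.49% of all regions, and 137 (35.6%) had a peak in 1 library, against 46%. The 14 were at Cdh2 and Vim (3 each), Twist1, Prrx1 and Prrx2 (2 each), and Snai1 and Snai2 (1 each), and 0 were at Zeb1, Zeb2 and Twist2. In 3 of the 14, the region was the promoter of Gorab, Ntmt1 or Trdmt1. Others among the 14 were promoter regions of the listed gene itself, at Snai2, Twist1, Cdh2 and Vim. By their best summit, 345 of the 385 regions were distal. A region found in 2 libraries was mostly shared by the 2 forms of the same factor, in 90 of 114 cases (78.9%, against 84.3% of such regions in the genome). Sox2BiD held 40 of the regions found in 1 library, Oct4BiD 34 and native Nr5a2 33, and the remaining 5 libraries held 2 to 9. As shares of all regions at the 10 genes these 3 were 10.4%, 8.83% and 8.57%, against 12.7%, 10.6% and 9.96% over the genome.

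**Figure D3:**
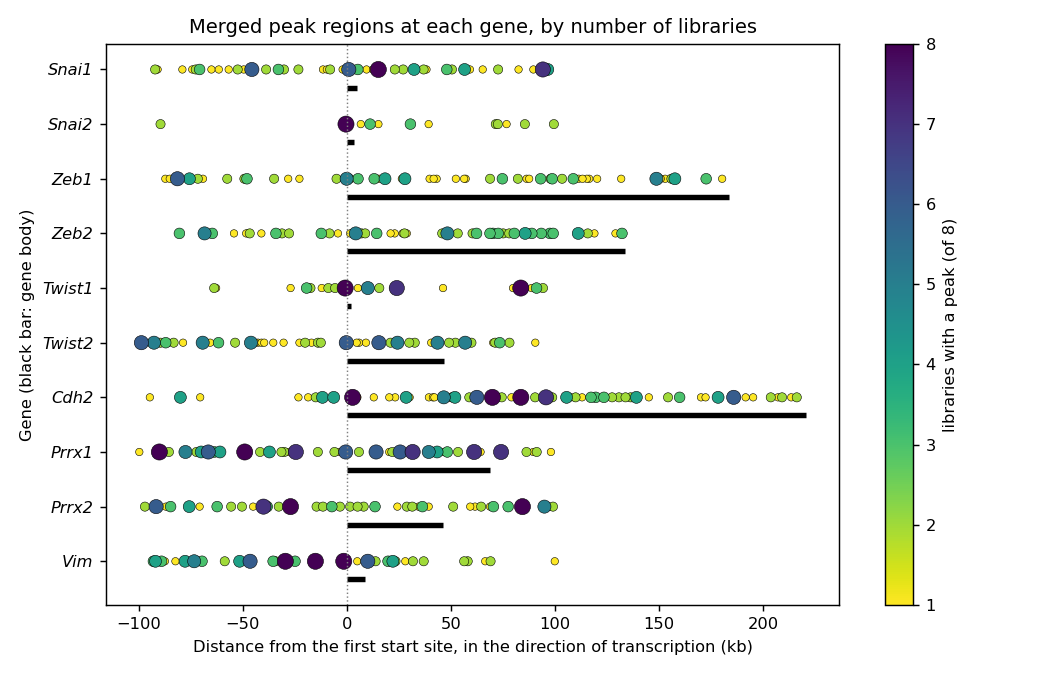
Merged peak regions of each gene along the distance of their best summit from the first start site (kb, direction of transcription). Size and colour of a point give the number of libraries with a peak, from 1 to 8, and black bars mark gene bodies. The 14 regions found in all 8 libraries are the darkest points; Zeb1, Zeb2 and Twist2 have none.

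Within these 14 regions, which were 1428 to 5122 bp long, the best-scoring summits of the libraries did not coincide. The median distance between the summits of the native and fused form of a factor was 60.5 bp over 56 pairs, and that between libraries of different factors was 304 bp over 336 pairs. Summits lay within 100 bp of each other in 69.6% of the first pairs and 29.8% of the second. Over all 4572 regions found in 8 libraries, the medians were 49 and 97 bp and the shares 71.1% and 50.9%. The pairs of a region share libraries and are not independent. In 12 of the 14 regions the median distance was smaller within a factor than between factors, as it was in 70.3% of all such regions. At the Vim promoter the 2 Sox2 summits lay nearest to each other, and so did the 2 Oct4 summits. Both Sox2 summits lay at -1.54 kb, 1 bp apart, the Nanog summits at -0.273 and -0.046 kb, and the Oct4 summits at 0.256 and 0.293 kb. The Nr5a2 summits, at 0.177 kb in the native library and 0.007 kb in Nr5a2BiD, each lay nearer to a summit of another factor than to one another. At the region before Prrx1, the Oct4 and Nr5a2 summits lay at -49.1 to -49.2 kb, the Sox2 summits at -48.6 and -48.7 kb and the Nanog summits at -47.8 and -47.9 kb. In contrast, all 8 summits spanned 144 bp at the Ntmt1 promoter, 177 bp at the Gorab promoter and 352 bp in the region after Snai1. When summits rather than peaks had to chain within 100 bp, 2 regions had all 8 libraries (0.327%, against 0.385% in the genome), so the higher share at the 10 genes was seen for overlapping peaks and not for coinciding summits.

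Regions with a peak in both forms of 1 factor and in no other library numbered 17 each for Nanog, Oct4 and Sox2, and 39 for Nr5a2. The Nr5a2 share, 10.1% of the regions at the 10 genes, was also 10.1% over the genome, and the 4.42% of each other factor stood against 3.78% for Nanog, 5.03% for Oct4 and 6.62% for Sox2. Those of Nr5a2 were most frequent at Snai1 (8), Prrx2 (7), Twist2 (7) and Cdh2 (6), with 0 at Snai2 and Twist1. Those of Nanog were most frequent at Cdh2 and Zeb2 (5 each). Those of Sox2 were most frequent at Zeb1 and Twist1 (4 each), and those of Oct4 at Snai2, Twist1 and Prrx2 (3 each). These counts are not scaled to the number of regions of a gene, which was 62 at Cdh2, 46 at Zeb2 and 12 at Snai2. The Nanog region with the highest score was in an intron of Cdh2 at 58.7 kb, with 46 tags in native Nanog and 79 in NanogBiD. The Oct4 region was that at -97.0 kb of Prrx2. For Sox2 it lay at -14.0 kb of Prrx1, with 34 and 43 tags, and for Nr5a2 at -30.1 kb of Prrx1, with 45 tags in the native library and 25 in Nr5a2BiD.

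The effect of the fusion was asked by setting each BiD library beside that of the native factor. With 1 library per form there was no test, and the intervals below are exact 95% intervals for counting error only, for peaks that are not independent. NanogBiD had 125 summits at the 10 genes and native Nanog 121, a log2 ratio of 0.047 (interval -0.33 to 0.42) against 0.045 over all peaks. Of the 10 genes, 4 had more summits with the fusion (59.3% of coding genes with a summit in either library) and 2 had fewer (23.7%). Oct4BiD had 140 summits and native Oct4 78, a log2 ratio of 0.84 (0.43 to 1.26) against 0.78 over all peaks. Here 9 genes had more summits with the fusion (89.8% of coding genes), and Snai2, with 5 against 6, had fewer (5.02%). Sox2BiD had 175 and native Sox2 78, a log2 ratio of 1.17 (0.77 to 1.57) against 1.05 over all peaks, and 10 genes had more (95.3%) and 0 fewer (1.81%). Nr5a2BiD had 127 and native Nr5a2 168, a log2 ratio of -0.40 (-0.75 to -0.063) against -0.50 over all peaks, and 0 genes had more (4.57%) and 10 fewer (88.8%). In each factor the value over all peaks lay inside the interval of the 10 genes. With the 50000 best-scoring peaks of each library, the log2 ratios came to -0.052 (Nanog), 0.021 (Oct4), 0.060 (Sox2) and 0.016 (Nr5a2). This cut itself makes the libraries equal in peak number, so small ratios follow where the 10 genes move with all peaks.

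**Figure D4:**
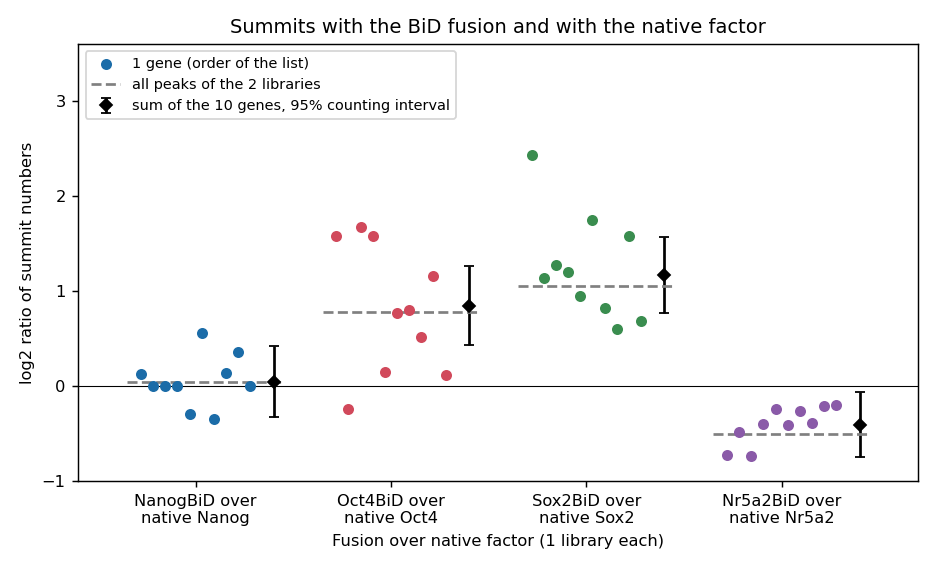
log2 ratio of summit numbers, BiD fusion over native factor. Coloured points are the 10 genes in the order Snai1, Snai2, Zeb1, Zeb2, Twist1, Twist2, Cdh2, Prrx1, Prrx2 and Vim (0.5 added to each count), black diamonds their sum with the 95% counting interval, and dashed lines all peaks of the 2 libraries. The diamonds lie at 0.047, 0.84, 1.17 and -0.40, and each interval covers its dashed line.

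Single genes departed from these sums, at counts too small to rank. For Sox2 the log2 ratio, with 0.5 added to each count, ran from 0.60 at Prrx1 (13 and 20 summits) to 2.43 at Snai1 (2 and 13). For Oct4 it ran from -0.24 at Snai2 (6 and 5) to 1.67 at Zeb1 (5 and 17), for Nanog from -0.35 at Cdh2 (23 and 18) to 0.56 at Twist2 (8 and 12), and for Nr5a2 from -0.74 at Zeb1 (12 and 7) to -0.20 at Vim (15 and 13). The larger list of a pair mostly held the smaller. Of the regions of native Sox2 at the 10 genes, 94.7% had a Sox2BiD peak (86.4% over the genome), and of the Sox2BiD regions 41.8% had a native one (41.9%). For Oct4 the shares were 85.3% of native and 47.1% of fusion regions, for Nr5a2 65.2% and 89.0%, and for Nanog 80.3% and 77.0%. Over the genome they were 73.4% and 42.8%, 60.9% and 86.3%, and 72.9% and 70.4%.

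The motif of the tagged factor lay within 50 bp of a minority of summits. It was found at 9 of 246 Nanog summits (3.66%, against 2.13% of all summits of the 2 libraries), 24 of 218 Oct4 summits (11.0%, against 7.67%), 8 of 253 Sox2 summits (3.16%, against 2.83%) and 36 of 295 Nr5a2 summits (12.2%, against 14.8%). At summits of the other 3 factors at the same genes, the NANOG motif was found at 5 of 766, the octamer at 4 of 794, the SOX motif at 4 of 759 and the NR5A motif at 2 of 717. For the octamer this is 0.504%, beside 11.0% at the Oct4 summits, and for NR5A 0.279%, beside 12.2% at the Nr5a2 summits. Oct4 summits with an octamer fell in 20 regions at 8 genes, all but Snai1 and Vim, and Nr5a2 summits with an NR5A match in 30 regions at 8 genes, all but Snai2 and Twist1. For native Oct4 the octamer share was 7.69% (exact 95% interval 2.88 to 16.0%), and for Oct4BiD 12.9% (7.80 to 19.6%). The NR5A share of native Nr5a2 was 13.7% (8.88 to 19.8%), and that of Nr5a2BiD 10.2% (5.56 to 16.9%). The intervals of the 2 forms overlap and cover counting error only.

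**Figure D5:**
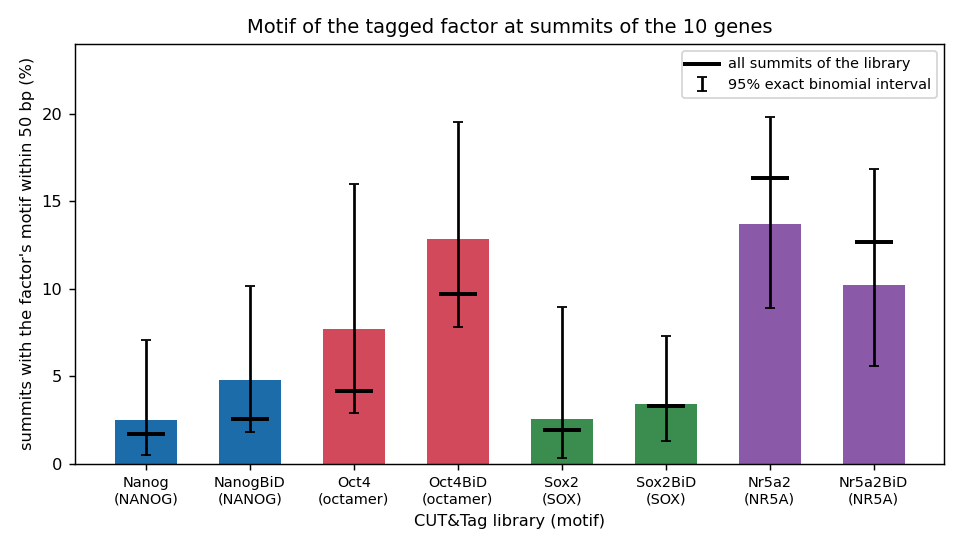
Percent of summits at the 10 genes with the motif of the tagged factor within 50 bp, by library. Bars show the 10 genes with exact 95% binomial intervals, and black dashes all summits of the library. The octamer share is 7.69% in native Oct4 and 12.9% in Oct4BiD, and each interval covers its dash.

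Motifs of other regulators of fibroblast chromatin were searched in the same windows. AP-1 (TGACTCA or TGAGTCA) was found at 3.57 to 11.0% of the summits of the 10 genes, depending on the library, TEAD (CATTCCA or CATTCCT) at 6.43 to 11.5% and RUNX (AACCACA) at 2.29 to 8.0%. Over all summits of the libraries the ranges were 3.61 to 10.2%, 5.43 to 11.3% and 2.27 to 7.97%. The E-box bound by the Snail and Zeb proteins themselves (CAGGTG) was found at 1.14 to 6.55% of the summits, against 1.5 to 3.46% of all summits. The highest value was in native Nr5a2, with 11 of 168 summits, and Nr5a2BiD had 3 of 127.

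Further genes of the transition and their epithelial counterparts were counted in the same way. Of 16 other genes of the transition (among them Fn1, Tgfb1 and Acta2), a promoter peak was found for 15 in native Nanog, 14 in NanogBiD, 10 in native Oct4, 14 in Oct4BiD, 6 in native Sox2, 14 in Sox2BiD, 12 in native Nr5a2 and 12 in Nr5a2BiD. Of 10 epithelial genes (among them Cdh1, which encodes E-cadherin, and Epcam), it was found for 3, 4, 0, 1, 1, 4, 9 and 5 in the same order. Cdh1 had a promoter peak in both Nr5a2 libraries and in no other, and Epcam in native Nr5a2 alone, a pair singled out after their values were seen. Cldn7 had the libraries of Cdh1, and Cldn4 that of Epcam. The rest of the list differed. Grhl2 had a promoter peak in 6 libraries, Esrp1 in 5 and Ocln in 4, with both Nanog libraries among them for each. Cldn3 and Krt8 had one in 3 libraries each, Sox2BiD among them, and Krt18 in 0. The counts for the 10 mesenchymal genes were 10, 10, 6, 8, 4, 8, 9 and 9. With the share of coding genes at 25.2 to 63.5%, the epithelial count was above its background share in native Nr5a2 only, where 63.5% of coding genes had a promoter peak.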

How the data were processed

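Flag CUT&Tag libraries of MEFs at day 3 were analysed, 1 per group. Per the methods of the study and the submitters' processing notes, the authors used Trim Galore 0.6.4 for trimming and Bowtie2 2.4.5 for alignment to mm10, removed repetitive, mitochondrial and low-quality (under 30) alignments with SAMtools 1.16.1 and called peaks with MACS 1.4.2 (1 tag per position, no model, shift size 25 bp). No control library is named. The methods state that replicates were merged before calling, whereas the study's reporting summary says that the assay was done a single time without biological replicates, so whether a peak list pools replicates is not settled. The deposited peak scores are those written by the authors' caller, -10 times the log10 of its p-value, with 50 as the lowest, and the deposited summit signal is a whole number of tags, not scaled to depth. Removal of poorly mapped reads lowers the coverage of repeats, although some summits still lay in repeated sequence. Peak numbers and scores can depend on sequencing depth among other things, and no allowance was made for it.

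Gene bodies, start sites and exons came from GENCODE M21 and bases from GRCm38, the assembly behind mm10. A promoter summit lay within 2 kb of any annotated start site. Regions merged peaks overlapping by at least 1 bp. Intervals are exact 95% intervals for counting error. The counting steps were tested on simulated data. No test between groups was possible with 1 library each. The 10 genes and the comparison lists were chosen with earlier results of these data known. All 10 genes were named, other genes only where their promoter held a peak of 6 or more libraries, as list examples or as the annotation of a region, and regions by number of libraries, score or motif. Python 3.11.15, NumPy 2.4.6, pandas 2.3.3, SciPy 1.17.1 and matplotlib 3.10.9 were used.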

Additional observations from a re-analysis of the deposited data

Results flagged for a closer look

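The change in peak number at the 10 genes differed in direction between the factors. All 10 genes had fewer summits in Nr5a2BiD than in native Nr5a2 (log2 ratio of the sums -0.40), as had 88.8% of coding genes. All 10 had more in Sox2BiD than in native Sox2 (1.17), as had 95.3% of coding genes. In Oct4BiD 9 of 10 had more than in native Oct4 (0.84), as had 89.8% of coding genes. These shares are of coding genes with a summit in either library. The difference between factors was not tested, since each form has 1 library, and all peaks of the libraries moved in the same directions (-0.50, 1.05 and 0.78). The ratio for Nr5a2 was 0.016 among the 50000 best-scoring peaks of each library.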

How the results depend on the processing

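Results were recomputed with other windows (50 kb, or the gene body and 2 kb before it), score limits (at least 100, or the 50000 best-scoring peaks of each library), promoter distances (500 bp), region definitions (summits within 100 bp), motif windows (25 and 100 bp) and without Cdh2, the gene with the most summits. Of 40 such values, 29 stayed within the counting interval of the ratio or within 1.5 times the count. The summit counts of single genes in single libraries were less stable. With the 50 kb window, 39 of them stayed within 1.5 times the count and 41 did not, as a narrower window holds fewer summits. For example, Prrx2 in Sox2BiD went from 16 to 5, and Twist2 in native Nr5a2 from 24 to 12. With 50000 peaks per library the log2 ratio became 0.021 for Oct4 and 0.060 for Sox2 and turned to 0.016 for Nr5a2, where the alternative itself makes the libraries equal in peak number. At 500 bp, 0 genes had a promoter peak in all 8 libraries and 1 had none. Regions with all 8 libraries numbered 2 by summits within 100 bp and 9 at a score of at least 100. Summits with the motif of their factor numbered 14 for Nanog at 100 bp, and 11 for Oct4, 5 for Sox2 and 14 for Nr5a2 at 25 bp, as a narrower or wider window holds fewer or more matches. The use of first start sites only was chosen after seeing the data. Leaving out a replicate was not possible with 1 library per group. No paired analysis was possible because the groups have no replicate numbers to pair and no test was run.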
